A study of Homo sapiens with 9 samples.

Results

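The DNA replication and nucleotide synthesis genes are 39 protein-coding genes that copy DNA in S phase or supply its building blocks. They were chosen by function, and the TIF-Seq2 read pairs of each were summed where both ends lay on the gene's strand within 1 kb of its Gencode v44 body. All 39 had read pairs, of 22384 genes in the series with at least 1, and all 39 passed the filter on low counts together with the rest of the 12135 genes tested. TIF-Seq2 sequences the capped 5′ end and the polyadenylated 3′ end of the same RNA molecule, so each read pair gives 1 transcript's start and end. The cells were K562, an established erythroleukemia line that carries the BCR-ABL1 fusion kinase, which imatinib inhibits. One group was exposed to 1 µM imatinib for 24 h and the other to the solvent DMSO for the same time, with 2 libraries a group from separate biological replicates. Both groups are this one line, so the comparison describes a single cell line at 1 dose and time.

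Replication begins when the origin recognition complex, with CDC6 and CDT1, loads the MCM2-7 helicase onto origins, and continues when CDC45 and the GINS complex convert the helicase to its active form. DNA polymerases then extend primers made by primase, held to DNA by the PCNA clamp that replication factor C (RFC) loads, while RPA coats single strands and FEN1 and LIG1 join Okazaki fragments. Ribonucleotide reductase (RRM1, RRM2), thymidylate synthase (TYMS) and thymidine kinase (TK1) supply deoxynucleotides, dUTPase (DUT) keeps uracil out of the nucleotide pool and uracil-DNA glycosylase (UNG) cuts it from DNA. Many of these genes are known targets of E2F factors, which RB proteins restrain outside S phase.

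The libraries held 3695520 and 5135829 read pairs for DMSO replicates 1 and 2, and 4263670 and 2263121 for imatinib replicates 1 and 2. The members took 112914 read pairs in all, or 0.696% and 0.694% of the DMSO libraries and 0.769% and 0.829% of the imatinib libraries. Summed after scaling to effective library size, the groups overlapped (6765 and 6243 CPM with DMSO, 6602 and 7600 CPM with imatinib). All 7 erythroid markers listed (such as HBG2, KLF1 and GATA1) had read pairs in every library, and 5 of them were called higher after imatinib, so that hemoglobin RNA moved with the treatment; their part in the values below was not tested. CPM below are read pairs scaled to the library's effective size (edgeR). Among markers of other cells, CD3E had no read pair, MPO had 1 and COL1A1 had 2 to 13 a library, whereas EPCAM was detected in every library (84.2 to 123 CPM). Imatinib replicate 1 and replicate 2 differed more than the DMSO pair did (Pearson correlation across genes of log2 CPM 0.955 against 0.981). In bulk RNA, fewer cells in S phase and less RNA per cell cannot be told apart.

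The 3′ ends that the isoform results turn on are shown first as the 30 bases that finish at the mapped end (hg38, strand of the gene), with the polyadenylation hexamers AATAAA and ATTAAA in capitals. Each label names the intron or exon that holds the end itself, and the bases before it can lie in a neighbouring exon. The CDC45 pair is shown because its intronic end was the member isoform that changed against its gene, the POLE2, MCM6 and UNG sites because they also lie in introns, and the CDT1 and RRM2 sites because these genes use several ends in the last exon.
CDC45 intron 12 (chr22:19507843-19507872, forward strand): aagagtctgcaAATAAAtttgggtaaacac
CDC45 last exon (chr22:19520572-19520601, forward strand): ttttttATTAAATAAAatgcttattttagg
POLE2 intron 3 (chr14:49679529-49679558, reverse strand): aatgactcatctttactggtttttcctggg
POLE2 last exon (chr14:49643556-49643585, reverse strand): tgatattacAATAAAattatggtaaacttt
MCM6 intron 11 (chr2:135856542-135856571, reverse strand): caaAATAAAgtcatttgaattgcctcttcc
MCM6 last exon (chr2:135840445-135840474, reverse strand): ttattcatcaaAATAAAataacttgttctg
UNG intron 6 (chr12:109103643-109103672, forward strand): tttttttaacactataaaaacaatgtaaag
UNG last exon (chr12:109110963-109110992, forward strand): aggtttgttAATAAAagtttgttaaaagtt
CDT1 last exon, shorter (chr16:88808480-88808509, forward strand): tggattcacATTAAAccggtttctgtgggc
CDT1 last exon, longer (chr16:88809225-88809254, forward strand): ctaaactctAATAAAgtcatgcttacagcc
RRM2 last exon, shorter (chr2:10129769-10129798, forward strand): tacaaacaAATAAAcattgtttgtactcac
RRM2 last exon, middle (chr2:10129936-10129965, forward strand): tattttaatgaATTAAAatatttgttaacc
RRM2 last exon, longer (chr2:10131384-10131413, forward strand): aagtgATTAAAATAAAactgttcttatgtc

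Of the 108 distinct member ends, 69 (63.9%) held 1 of the 2 hexamers in this window, beside 61.1% of all 19408 ends in the series. Among the main ends of 34 members, the ends of their largest isoforms, 31 held one. The 61.1% also covers minor ends and is no match for this count, and a share over the main ends of all genes is not given here. The windows of the CDC45 and MCM6 intronic ends both held AATAAA. In CDC45 this hexamer lay in exon 12, which stops 8 bp before the end. The windows of the UNG intronic end and the most used POLE2 intronic end held neither hexamer. The base composition after the ends stayed under the limit of 7 A in 10 nt by which likely internal priming was removed (2 A after the CDC45 intronic end).

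The 100 bases before the most used start are shown for 7 members whose window holds at most 30 annotated untranslated bases (hg38, strand of the gene). They include CDT1 and MCM2, which were called, and TYMS, RRM2, GINS2, MCM5 and PCNA, which were not. Capitals mark E2F letters (TTT, 2 bases that are each C or G, then CGC) and CCAAT, searched on both strands; in the windows printed here no base belongs to both motifs.
CDT1 (chr16:88803697-88803796, forward strand): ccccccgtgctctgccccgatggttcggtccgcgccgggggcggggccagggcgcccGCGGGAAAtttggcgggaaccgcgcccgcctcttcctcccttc
MCM2 (chr3:127598310-127598409, forward strand): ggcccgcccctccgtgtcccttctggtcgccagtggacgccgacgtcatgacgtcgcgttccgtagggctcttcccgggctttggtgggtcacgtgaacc
TYMS (chr18:657581-657680, forward strand): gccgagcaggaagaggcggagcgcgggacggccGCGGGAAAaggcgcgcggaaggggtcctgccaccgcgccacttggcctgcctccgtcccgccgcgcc
RRM2 (chr2:10122639-10122738, forward strand): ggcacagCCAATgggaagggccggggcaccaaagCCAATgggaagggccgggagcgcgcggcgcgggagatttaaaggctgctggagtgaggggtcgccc
GINS2 (chr16:85688953-85689052, reverse strand): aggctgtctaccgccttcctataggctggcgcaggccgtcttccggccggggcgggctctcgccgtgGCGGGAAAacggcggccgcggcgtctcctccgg
MCM5 (chr22:35400033-35400132, forward strand): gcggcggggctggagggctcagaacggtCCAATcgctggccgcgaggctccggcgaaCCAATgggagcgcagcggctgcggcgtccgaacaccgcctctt
PCNA (chr20:5119959-5120058, reverse strand): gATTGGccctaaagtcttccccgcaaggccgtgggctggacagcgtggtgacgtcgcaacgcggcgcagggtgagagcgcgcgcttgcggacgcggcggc

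E2F letters stood in 6 of 34 member windows (17.6%) and in 2.34% of the windows of all 6914 genes with a start so mapped. CCAAT stood in 17 of 34 member windows (50.0%) and in 23.0% of all windows. CDT1, GINS2 and RFC3 carried the E2F letters as the complement GCGGGAAA, TYMS likewise, and MCM7 and RPA3 as TTTCGCGC and TTTCCCGC; in MCM7 the last of these letters is also the first of a CCAAT, and the gene counts under both motifs. A match describes letters only, and CDT1 and TYMS, which both held them, had log2 fold changes of 1.10 and -0.05, given with their tests below.

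The first comparison asked which of these genes differed between imatinib and DMSO at the level of the whole gene. After imatinib 3 members were called, all higher: the licensing factor CDT1, the ligase LIG1 and the helicase subunit MCM2, each at 2.02 to 2.27 times the DMSO level. The remaining 36 did not pass the test. The 3 calls are 7.69% of the members, against 14.8% of all genes tested that were called in either direction (8.69% higher, 6.15% lower). No member was called lower by edgeR, where 1 (GINS3) had an unadjusted p under 0.05, and none by DESeq2, which called 2 higher. The median log2 fold change of the members was 0.08, beside 0.03 over all genes tested, and the median size of the change without its sign was 0.28 against 0.53. In 31 of 39 members the log2 fold change lay within 0.5 of 0, and standard errors ran from 0.25 to 0.47.

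**Figure D1:**
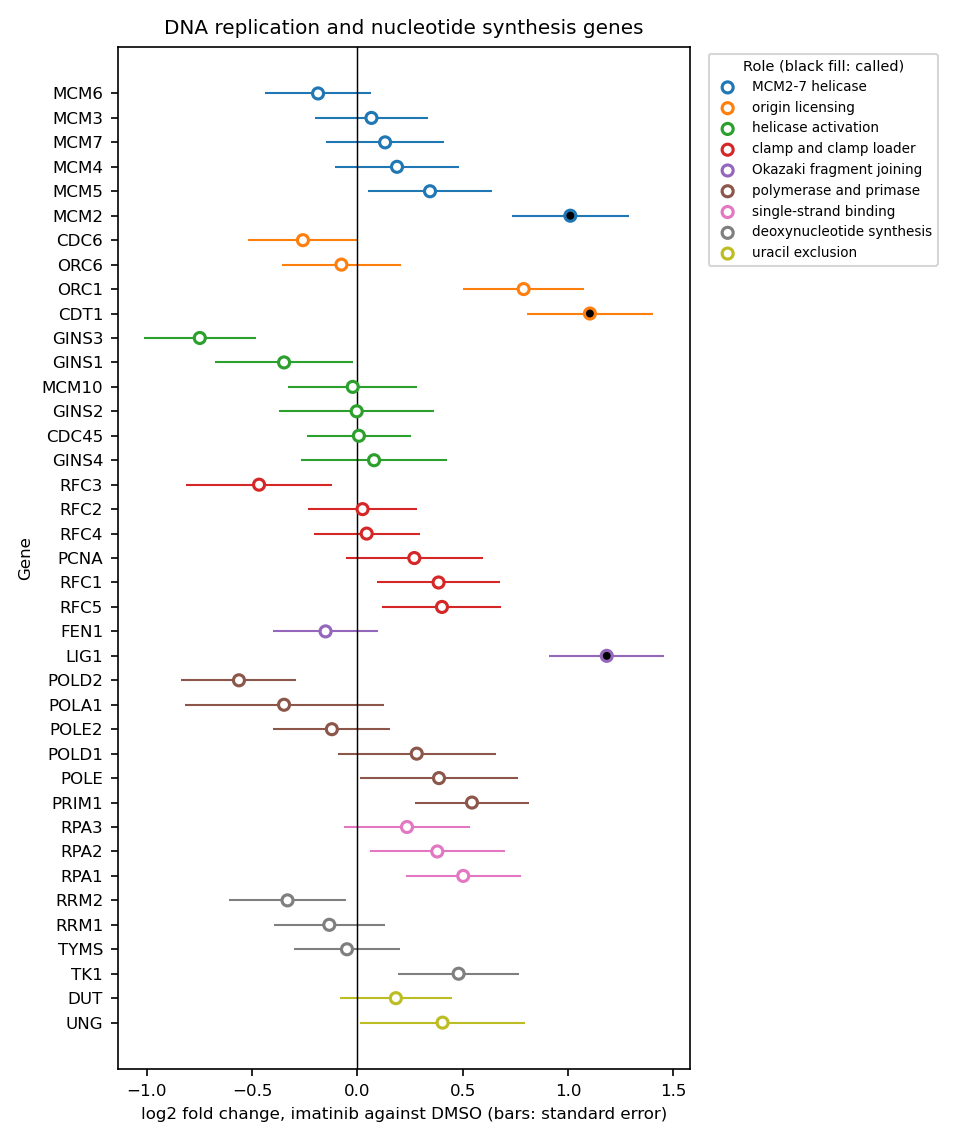
Each row is a gene, ordered by role and then by fold change; points are log2 fold changes of imatinib against DMSO from edgeR, bars are standard errors, and black fill marks an adjusted p under 0.05. MCM2 (1.01), CDT1 (1.10) and LIG1 (1.18) are filled, and most of the others sit within 0.5 of 0.

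CDT1, which loads the helicase together with CDC6, lies at chr16:88803789-88809258 on the forward strand. Its level was 142 and 192 CPM in the DMSO libraries and 433 and 287 CPM in the imatinib libraries. Both imatinib libraries were above both DMSO libraries, and imatinib replicate 1 was the highest. The gene rose 2.15-fold (log2 1.10, SE 0.30, adjusted p = 0.0387, quasi-likelihood test of edgeR, Benjamini-Hochberg adjusted over all genes tested, n = 2 a group).

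LIG1, the ligase that seals Okazaki fragments, lies at chr19:48115445-48170603 on the reverse strand. It stood at 44.5 and 44.1 CPM with DMSO and at 90.4 and 111 CPM with imatinib, with no overlap between the groups. It rose 2.27-fold (log2 1.18, SE 0.27, edgeR adjusted p = 0.0226, n = 2 a group). MCM2, at chr3:127598410-127622436 on the forward strand, stood at 30.3 and 31.7 CPM with DMSO and at 58.8 and 66.4 CPM with imatinib. It rose 2.02-fold (log2 1.01, SE 0.28, edgeR adjusted p = 0.0412, n = 2 a group), and again the groups did not overlap. Without DMSO replicate 1 or without DMSO replicate 2, none of the 3 genes passed (edgeR adjusted p = 0.304 and 0.091 for CDT1, 0.166 and 0.186 for LIG1, 0.294 and 0.277 for MCM2), although the log2 fold changes stayed between 0.88 and 1.32. A fit without 1 library leaves its group with a single library, which is assumed to vary like the other group's pair. With DESeq2, MCM2 had an adjusted p of 0.0632.

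The other MCM2-7 subunits did not follow MCM2. MCM6, the subunit with most read pairs, had 185 and 227 CPM with DMSO and 186 and 177 CPM with imatinib, so that the groups overlapped (log2 -0.19, SE 0.25, edgeR adjusted p = 0.658). MCM3, MCM4, MCM5 and MCM7 had log2 values from 0.07 to 0.34 and did not pass. Of the MCM7 read pairs, 21.5% also met the counting rule of another gene. The median log2 fold change of the 6 subunits was 0.16; the difference between subunits was not tested.

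Among licensing factors, ORC1, the largest subunit of the origin recognition complex, had 29.5 and 37.0 CPM with DMSO and 54.2 and 61.1 CPM with imatinib. Its groups did not overlap, but it missed the threshold (log2 0.79, SE 0.29, edgeR adjusted p = 0.0981). ORC6, a small subunit of the same complex, had 374 and 260 CPM against 261 and 340 CPM, and CDC6, the loader ATPase, 118 and 145 CPM against 110 and 110 CPM; neither passed.

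No helicase activation gene was called. GINS3, a subunit of the GINS complex, had 81.6 and 86.0 CPM with DMSO and 48.7 and 51.0 CPM with imatinib. Both imatinib libraries were below both DMSO libraries, and the estimate was the lowest of the 39 members (log2 -0.75, SE 0.27, edgeR adjusted p = 0.092). CDC45, which joins the helicase with GINS, had 362 and 432 CPM against 414 and 384 CPM, with a log2 fold change of 0.01 (SE 0.25, edgeR adjusted p = 0.988). MCM10, GINS1, GINS2 and GINS4 lay between -0.35 and 0.08 on the log2 scale.

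PCNA, the sliding clamp, had 725 and 545 CPM with DMSO and 544 and 989 CPM with imatinib. The lowest and the highest of the 4 values were both imatinib libraries (log2 0.27, SE 0.32, edgeR adjusted p = 0.615). The 5 RFC subunits that load it ranged from -0.47 (RFC3) to 0.40 (RFC5). FEN1, the nuclease that trims Okazaki flaps, had 149 and 149 CPM against 132 and 136 CPM and did not pass (log2 -0.15, SE 0.25); every FEN1 read pair also met the counting rule of another gene.

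Polymerase and primase genes ran from -0.56 to 0.54. POLD2, an accessory subunit of polymerase delta, had 86.6 and 99.6 CPM with DMSO and 56.8 and 69.6 CPM with imatinib (log2 -0.56, SE 0.27, edgeR adjusted p = 0.195), and the groups did not overlap. PRIM1, the catalytic primase subunit, had 70.8 and 63.6 CPM against 88.4 and 108 CPM (log2 0.54, SE 0.27, edgeR adjusted p = 0.204), also without overlap. POLD1 (115 read pairs in all) and POLE (187) were the members read least often, and neither passed (log2 0.28, SE 0.38 and 0.39, SE 0.37). Of the POLD1 read pairs, 26.1% also met the counting rule of another gene. Of the RPA subunits, which bind single strands, RPA3 had 403 and 447 CPM against 632 and 368 CPM, and RPA1 and RPA2 had log2 values of 0.50 and 0.38; none passed.

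The nucleotide genes did not pass either. RRM2, the small subunit of ribonucleotide reductase that is made in S phase, had 337 and 334 CPM with DMSO and 212 and 321 CPM with imatinib; both imatinib libraries were lower, the second by little (log2 -0.33, SE 0.28, edgeR adjusted p = 0.449). TYMS, which makes dTMP, had 741 and 622 CPM against 589 and 727 CPM (log2 -0.05, SE 0.25). TK1, which salvages thymidine, had 215 and 173 CPM against 217 and 324 CPM (log2 0.48, SE 0.29, edgeR adjusted p = 0.286). Imatinib replicate 2 was the highest library for TK1, and imatinib replicate 1 stood just above DMSO replicate 1.

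DUT had 1034 and 829 CPM with DMSO and 906 and 1209 CPM with imatinib (log2 0.18, SE 0.27, edgeR adjusted p = 0.683). UNG had 36.0 and 29.6 CPM with DMSO and 27.2 and 60.7 CPM with imatinib, so the imatinib libraries held both the lowest and the highest value (log2 0.40, SE 0.39, edgeR adjusted p = 0.523). Without imatinib replicate 1, the imatinib group is 1 library and the spread comes from the DMSO pair alone, so that a call speaks for that library. In this fit imatinib replicate 2 gave UNG a log2 fold change of 0.91 (edgeR adjusted p = 0.0356) and TK1 one of 0.76 (adjusted p = 0.0366). ORC1 also passed (log2 0.89, edgeR adjusted p = 0.0402) and POLA1, the catalytic subunit of polymerase alpha, was called lower (log2 -1.43, adjusted p = 0.00813); POLA1 had 20.5 and 29.8 CPM with DMSO and 29.0 and 9.31 CPM with imatinib. Without imatinib replicate 2, GINS3 was called lower (log2 -0.82, edgeR adjusted p = 0.0484).

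**Figure D2:**
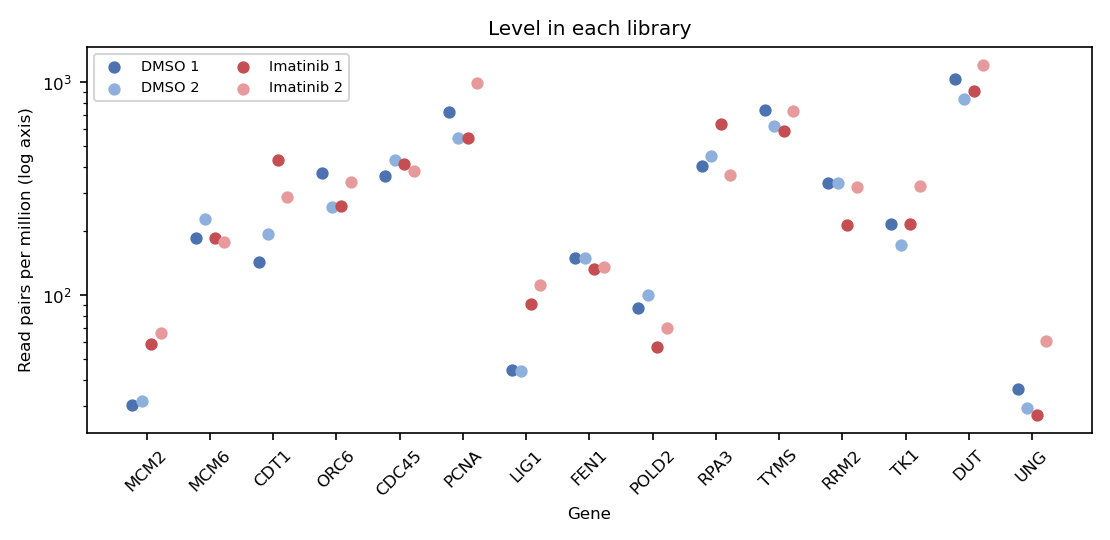
Level of 15 members in each of the 4 libraries, in CPM, on a log axis; each point is 1 library. The imatinib points lie above both DMSO points for MCM2, CDT1, LIG1 and TK1, of which TK1 was not called. They lie below both for FEN1, POLD2 and RRM2, none of them called. For PCNA, RPA3 and UNG they lie on either side of the DMSO points.

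Counted without a test, both imatinib libraries were above both DMSO libraries in 11 members (28.2%) and below in 7 (17.9%), and in 21 members the groups overlapped. Over all genes tested these shares were 31% above and 29.1% below.

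The other genes of these pathways were taken from 3 lists. Of 40 other genes of the replisome and chromatin replication, all tested, edgeR called none, with 1 higher and 1 lower at an unadjusted p under 0.05, and DESeq2 called none; their median log2 fold change was -0.04. Of 38 other genes of nucleotide synthesis, 2 rose and 7 fell, with a median of -0.49, where 8.69% of all genes tested rose and 6.15% fell. The highest of the called genes was GUK1, the guanylate kinase, with 49.2 and 48.7 CPM with DMSO and 622 and 304 CPM with imatinib (log2 3.24, SE 0.37, edgeR adjusted p = 0.00217). Among those that fell were the purine synthesis enzyme PFAS (log2 -1.56, SE 0.37) and the nucleoside diphosphate kinase NME1 (-1.30, SE 0.24), with edgeR adjusted p-values of 0.0253 and 0.0107. Their groups did not overlap: PFAS had 12.4 and 17.9 CPM against 5.04 and 5.26 CPM, and NME1 753 and 662 CPM against 294 and 281 CPM. The E2F and RB list gave 1 call among 12 tested genes, E2F2, at 18.4 and 17.5 CPM against 41.5 and 32.4 CPM (log2 1.05, SE 0.30, edgeR adjusted p = 0.0483), against the same 8.69% of all genes that rose. DESeq2 called none of the E2F and RB list, with E2F2 at an adjusted p of 0.106, and E2F2 also missed the threshold in edgeR with the size factors of DESeq2 (adjusted p = 0.0503) and with no filter on low counts (0.0527). PFAS had an adjusted p of 0.0501 with DESeq2. GUK1 passed without any 1 of the 4 libraries. The other genes named here lost their call without at least 1 of the DMSO libraries: PFAS without replicate 2 (edgeR adjusted p = 0.224), NME1 without replicate 1 (0.0693) and E2F2 without either (0.242 and 0.318) or without imatinib replicate 1 (0.0731). MKI67 and TOP2A, which mark cycling cells, had log2 values of -0.13 and 0.17 and did not pass.

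The second comparison asked which isoforms the genes used. A transcript isoform (TIF) joined a cluster of starts to a cluster of ends by at least 4 read pairs. Clusters were built only from positions that reached 1 normalized count in at least 2 libraries. Depending on the library, this took 5 to 11 read pairs at a single base for starts and 2 or 3 for ends. By this rule 219 TIFs fell to 34 of the 39 members. MCM4, GINS1, POLD1, POLE and RPA2 had none, although each had read pairs. In 31 members there was more than 1 TIF, and in these the largest took a median 68.9% of the TIF read pairs. RRM2 had the most, with 22. Starts were within 200 bp of an annotated start of the gene for 211 TIFs, whereas ends were that near an annotated end for 160 and farther for 59. For 9 members, the largest TIF ended more than 200 bp from the end of the canonical transcript.

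Of 106 member TIFs with enough read pairs to test, 7 were called, 6 higher and 1 lower, against 11.1% of all TIFs tested (6.38% higher, 4.73% lower). The 6 higher TIFs were 2 of CDT1, 1 of LIG1, 1 of MCM2 and 2 from the upstream start of PCNA; the lower TIF was in CDC45. Tested against the rest of their gene, 1 of 100 member TIFs was called, that of CDC45, against 1.7% of all TIFs in that test.

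CDC45 lies at chr22:19479457-19520612 on the forward strand. Its full-length TIF began at 19479929 and ended at 19520601 in exon 19, the last, with 956 and 1795 read pairs in the DMSO libraries and 1525 and 727 in the imatinib libraries (log2 0.25, SE 0.26, edgeR adjusted p = 0.564). A second TIF began at the same start and ended at 19507872, 12.7 kb before the canonical end. It had 91 and 146 read pairs with DMSO and 11 and 17 with imatinib, and both imatinib libraries were below both DMSO libraries although their depths differed. It fell by 2.40 on the log2 scale (SE 0.51, edgeR adjusted p = 0.0182), and against the rest of the gene it fell by 2.57 (edgeR adjusted p = 0.00873).

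The early CDC45 end lay 8 bp past the end of exon 12, inside intron 12, and 2502 bp from the nearest annotated end of the gene. Its AATAAA began 19 nt before the end, as printed above, and so lay in exon 12. Exons up to that point hold 351 whole codons of the 566 of the annotated protein. Read on across the exon boundary in the same frame, the reference sequence gives 1 more codon and then TAA, whose first base is base 2 of the intron, so the stop codon lies within the truncated RNA. Whether such a protein is made was not measured.

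Shares of the early end were taken among CDC45 read pairs with fewer than 7 A in the 10 nt after the 3′ end. With all 3′ ends kept they were 7.85% and 6.45% with DMSO and 0.682% and 2.32% with imatinib. With A-rich ends left out, the early end took 7.88% (95% Wilson interval 6.57 to 9.42) and 6.47% (5.56 to 7.51) in the DMSO libraries. In the imatinib libraries it took 0.685% (0.408 to 1.15) and 2.33% (1.54 to 3.50). These intervals cover counting error only. The DMSO mean was 7.17% ± 1.0 (SD, n = 2) and the imatinib mean 1.51% ± 1.2 (SD, n = 2); an exact permutation test of 4 libraries cannot go below p = 0.333, which is the value here. Counted as a class, all read pairs from the canonical start that ended before the last exon were 132 and 197 with DMSO and 20 and 22 with imatinib, and this class fell against the rest of the gene by 2.51 (log2, edgeR adjusted p = 0.017). It was the only member class called of 76 tested, against 0.179% of all classes. The call of the TIF against the rest of its gene was lost without DMSO replicate 1, DMSO replicate 2 or imatinib replicate 1 (edgeR adjusted p = 0.256, 0.299 and 0.183, log2 -2.46, -2.64 and -1.80) and kept without imatinib replicate 2 (adjusted p = 0.00311). The class call was lost in the same 3 fits (edgeR adjusted p = 0.847, 0.714 and 0.125). The fall of the TIF itself passed without any 1 of the 4 libraries, with log2 values from -3.25 to -1.72.

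**Figure D3:**
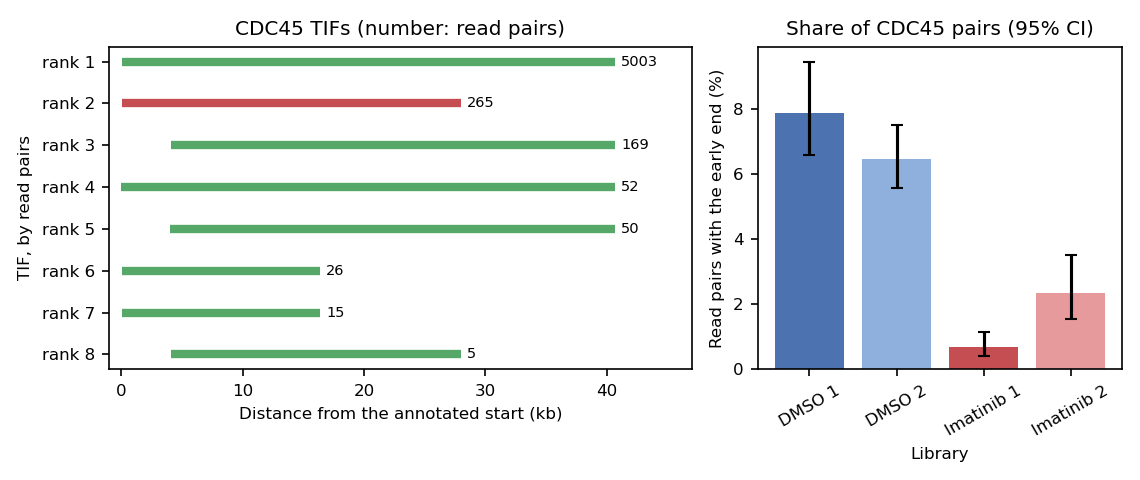
Left, the 8 CDC45 TIFs with most read pairs, drawn by distance from the annotated start in kb, with their read pairs over the 4 libraries; the truncated TIF (red) had 265. Right, share of CDC45 read pairs with the early end in each library, in percent, with A-rich 3′ ends left out and 95% Wilson intervals. The DMSO bars are at 7.88 and 6.47 and the imatinib bars at 0.685 and 2.33.

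PCNA showed 2 start regions that encode the same protein of 261 residues. The main start was at 5119958 on the reverse strand of chromosome 20, and the other lay near the start of a second Gencode transcript 6668 bp upstream. The 2 upstream TIFs had 65 and 70, and 61 and 59, read pairs with DMSO, and 138 and 96, and 124 and 87, with imatinib. Both rose (log2 1.35, SE 0.36 and 1.36, SE 0.38; edgeR adjusted p = 0.0423 and 0.0484), while the main TIF had 1744 and 1847 against 1675 and 1529 read pairs (log2 0.45, SE 0.30, edgeR adjusted p = 0.36). Against the rest of the gene, neither upstream TIF passed (edgeR adjusted p = 0.515 for both). Both calls were lost without DMSO replicate 1 (edgeR adjusted p = 0.18 and 0.154) and without DMSO replicate 2 (0.387 and 0.431), and DESeq2 gave the second an adjusted p of 0.0603. Within 150 bp of the 2 annotated starts, the upstream one took 6.15% and 5.84% of read pairs with DMSO and 13.1% and 9.91% with imatinib.

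DUT makes a mitochondrial form of 252 residues from an upstream start and a nuclear form of 164 residues from a start 674 bp downstream. The nuclear start was the main one in every library. The mitochondrial start took 11.3% and 13.3% of the read pairs of both starts with DMSO, and 18.0% and 18.2% with imatinib, with 13145 read pairs in all. Its main TIF had 275 and 369 read pairs against 470 and 344 (log2 0.93, SE 0.29, edgeR adjusted p = 0.068), and against the rest of the gene the edgeR adjusted p was 0.806. UNG likewise has a nuclear form of 313 residues and a mitochondrial form of 304 residues, from starts 521 bp apart. The mitochondrial start had 8 of 119 and 7 of 155 read pairs with DMSO and 18 of 122 and 12 of 133 with imatinib, or 6.72% and 4.52% against 14.8% and 9.02%. In PCNA, DUT and UNG, the share of the minor start was higher in both imatinib libraries than in both DMSO libraries, and for each the exact permutation test gave p = 0.333, the lowest that 2 against 2 can give. These windows were set after the values of the TIFs had been seen, and such a pattern was common: of 753 genes with a second start region of at least 20 TIF read pairs (regions set apart by more than 300 bp), the share of the second region was higher in both imatinib libraries in 36% and lower in both in 27.1%. Of the 7 members among them, which do not include UNG, it was higher in 4 (DUT, PCNA, RRM2 and TYMS) and lower in 1 (FEN1).

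**Figure D4:**
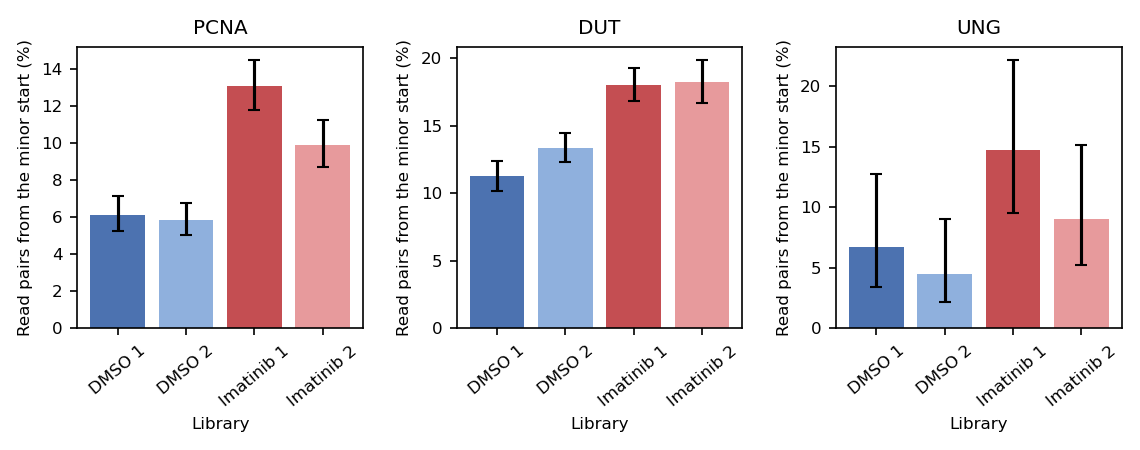
Share of read pairs from the minor start among those within 150 bp of either annotated start, in percent, in each library, with 95% Wilson intervals: the upstream start of PCNA, and the mitochondrial-form starts of DUT and UNG. In each gene the 2 imatinib bars stand above the 2 DMSO bars; the UNG intervals are wide because it had 529 such read pairs.

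From its main start, CDT1 ended at 88808509 (69.8% of its TIF read pairs), 749 bp before the canonical end, or at 88809254 (25.0%). Both TIFs rose, by similar amounts: 281 and 616 read pairs with DMSO against 1262 and 409 with imatinib for the shorter (log2 1.38, SE 0.34, edgeR adjusted p = 0.0306) and 91 and 211 against 453 and 164 for the longer (log2 1.54, SE 0.37, edgeR adjusted p = 0.0268). Neither passed against the rest of the gene. LIG1 and MCM2 each used 2 nearby starts: in LIG1 the upstream start rose (65 and 89 against 173 and 124 read pairs, log2 1.53, SE 0.34, edgeR adjusted p = 0.0224) and the start 42 bp downstream did not pass (49 and 75 against 98 and 60, log2 0.91, SE 0.36, adjusted p = 0.132). In MCM2 the downstream start rose (38 and 52 against 120 and 53, log2 1.44, SE 0.38, edgeR adjusted p = 0.0374) and the upstream one did not pass (43 and 71 against 92 and 69, log2 1.11, SE 0.38, adjusted p = 0.0898). For both genes the use of the 2 starts did not pass against the rest of the gene. Without DMSO replicate 1, none of these 4 called TIFs passed (edgeR adjusted p from 0.158 to 0.252), and without DMSO replicate 2 those of LIG1 and MCM2 did not (0.188 and 0.294).

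RRM2 RNA ended at 3 main places in the last exon. With the main start, the shortest had 335 and 484 read pairs with DMSO and 298 and 225 with imatinib, the middle 281 and 476 against 196 and 162, and the longest 120 and 203 against 82 and 118. Their log2 fold changes were -0.04, -0.44 and 0.05 and none passed. A further 4.15% of RRM2 read pairs (207 of 4985) ended more than 50 kb past the start, within or up to 1 kb past the long gene body that Gencode gives RRM2; the share ran from 2.66% to 5.73% over the libraries, with the 2 extremes both in imatinib.

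The truncated forms were not equally common. Read pairs that ended before the last exon made up at least 5% of the total in 10 members and at least 10% in 5, with a median of 0.953% over the 39. In POLE2, a small subunit of polymerase epsilon, they made up 38.8% and 47.1% with DMSO and 35.4% and 24.7% with imatinib. Most of these ended in intron 3, at 49679529 (73 TIF read pairs, 14 and 38 with DMSO, 19 and 2 with imatinib), 49679573 (38) and 49679474 (28), within 100 bp of the end of an annotated short transcript. Against the rest of the gene, the first had an edgeR adjusted p of 0.855. In POLE they were 17.8% and 31.7% against 10.4% and 9.38%, but over only 166 read pairs. In RFC1 they were 10.3% and 8.08% against 4.39% and 6.0%, over 331 read pairs. In POLE2, POLE and RFC1 both imatinib libraries lay below both DMSO libraries, with an exact permutation p of 0.333 for each. Of the 16 members with at least 20 such ends, both imatinib libraries were below in 6 and above in 0; over 4887 genes with as many, they were below in 30.1% and above in 8.72%.

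The same share in POLA1, GINS1, MCM4, GINS4 and RRM1 overlapped between the groups. In UNG it was 13.1% and 12.4% with DMSO and 15.5% and 3.36% with imatinib. The early UNG TIF in intron 6 had 5, 11, 5 and 0 read pairs. In imatinib replicate 2, where it had 0, the UNG TIF end in the last exon had 54, so a low share could be missed. MCM6 had an early TIF in intron 11 with 22 and 40 read pairs against 9 and 10, and its share of early ends was 4.43% and 4.65% against 1.75% and 4.66%.

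**Figure D5:**
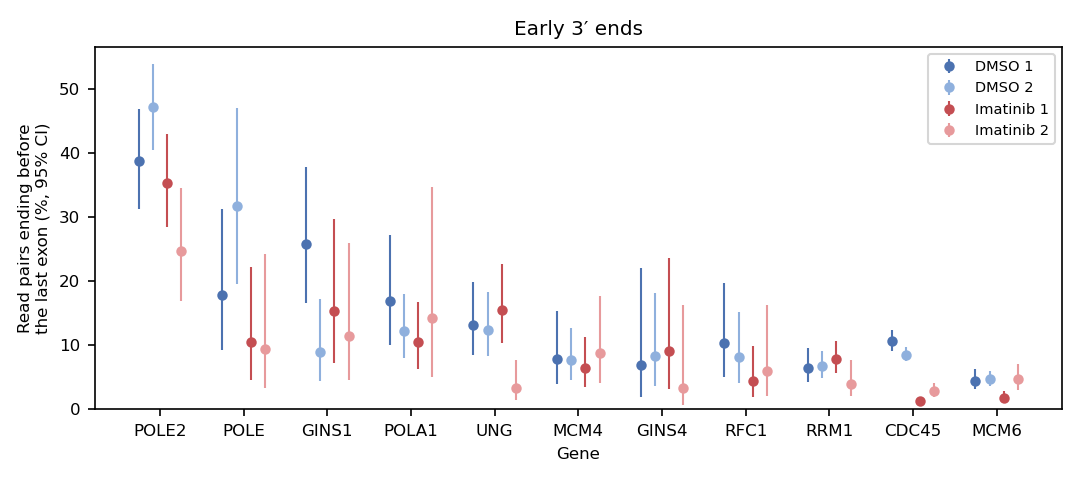
Share of read pairs that end before the last exon of the canonical transcript, in percent, for the 10 members at 5% or more and MCM6; points are libraries and bars 95% Wilson intervals. CDC45 is the gene whose DMSO and imatinib intervals stand clear of each other; those of POLE2, POLE and UNG are wide.

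The smaller isoforms of other members did not pass against their genes. By the rule of at least 5% of a gene's TIF read pairs and 20 read pairs, 48 minor TIFs stood in 26 members. In MCM3 a start at 52284784, just upstream of the main one at 52284749, had 17 and 32 read pairs with DMSO and 65 and 19 with imatinib (log2 1.24, SE 0.46, edgeR adjusted p = 0.113; 0.411 against the rest of the gene). In RPA3 the starts at 7640435 and 7640463, joined to the end at 7636946, had 2460 and 2124 read pairs in all, and the same starts joined to 7636716 had 1135 and 771. CDC6 ended at 40302918 or 40301973 in exon 12, GINS3 at 58406143 or 58406036, and PRIM1 at 56731623 or 56731582, with log2 fold changes of their TIFs from -0.54 to 1.00, none of which passed.

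Longer members had fewer read pairs. Over the 39 members, the total of read pairs was lower the longer the canonical transcript (Spearman rho -0.54 across genes, which share 4 libraries): the 18 members of 3 kb or longer had a median of 748 read pairs and the 21 shorter ones 2411. The share of read pairs that started within 200 bp of an annotated start had a median of 86.0%, but was 15.1% in MCM7, 32.2% in MCM4, 33.1% in POLE and 44.5% in POLA1. Ends within 200 bp of an annotated end had a median of 97.5%. Of these 4 genes, MCM7 has a canonical transcript under 3 kb (2467 nt) and the others are longer; starts farther from an annotated one are part of their counts.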

How the data were processed

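Capped and polyadenylated RNA was read by TIF-Seq2 in 4 K562 libraries, 2 DMSO and 2 imatinib. The authors aligned reads to hg38 with STAR 2.5.3a after trimming with cutadapt 1.16, collapsed molecular identifiers, and deposited raw counts of unique molecules per pair of 5′ and 3′ ends. The 3′T-fill libraries were not analysed here, and the long-read models, which hold no member, were not used here. Members and lists were chosen with earlier results of these data known.

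Counts were summed per Gencode v44 gene (both ends on its strand within 1 kb of its body; a pair can meet the rule of several genes). CPM are read pairs scaled to effective library size (TMM). Starts and ends were clustered within 10 bp after power-law scaling; ends with 7 or more A in the next 10 nt were left out of isoforms; TIFs needed 4 read pairs spanning 300 bp to 2 Mb. Classes took a start over 500 bp past the canonical one as internal. Tests were edgeR 4.0.16 quasi-likelihood fits (TMM, filterByExpr, Benjamini-Hochberg over all features; called at adjusted p under 0.05) and its diffSpliceDGE for an isoform against its gene; DESeq2 1.42.0 was an alternative. Scripts were tested on simulated counts. Named in full are the called members, UNG, DUT, RRM2, TK1, the member with most read pairs in each role, minor TIFs of 5% and 20 read pairs, called isoforms, and from each list the 3 called genes with the largest change in each direction; ORC1, CDC6, GINS3, PRIM1, POLA1, RPA3's ends, the starts of PCNA, DUT, UNG and MCM3, the CDC45 and RRM2 end windows and the printed sequence windows were chosen after their values were seen. Some listed genes that the rule names are not reported here. Depth was 2263121 to 5135829 read pairs a library; replicates differed by more than counting noise (chi-square per degree of freedom 10.5 and 17.4).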

Additional observations from a re-analysis of the deposited data

How the results depend on the processing

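With 2 libraries a group, calls were sensitive to which library was left out: the count of members called ran from 0 to 7, of listed pathway genes from 2 to 24, of member TIFs from 1 to 15, and of member TIFs and classes against their gene from 0 to 1. The labels give the groups the same replicate numbers without saying what the numbers share, and samples with the same number did not deviate together (correlation of deviations from the group mean -0.257). With the replicate number as a block, the counts were 0 members, 4 listed genes, 1 member TIF, and 0 TIFs and 0 classes against their gene. With the numbers crossed, chosen after seeing the data, they were 5 members, 23 listed genes, 13 TIFs and 2 TIFs against their gene. DESeq2, other size factors, no filter on low counts, A-rich ends left out, ends inside the gene body, pairs of several genes left out and a log2 change beyond 1 kept the member count between 2 and 3, where DESeq2 lost MCM2. Over all genes the calls ranged from 820 without DMSO replicate 2 to 3986 without imatinib replicate 2, against 1800. Of 328 alternative values for 31 results on named genes and isoforms, 274 kept their side of the threshold, 47 lost the call, 7 gained one, and no called value changed sign. The cause of these shifts was not tested. Standard errors of 0.25 to 0.47 on the log2 scale limit what 2 libraries a group can show.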
